A study of Mus musculus with 11 samples.

Results

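The hormone receptors of the mouse mammary gland and 2 of the genes that steroid hormones switch on were followed in sorted epithelial cells of the pubertal gland. The 8 genes were taken by name and not by a cut on their values, though earlier results of these data were known. Esr1, Pgr, Nr3c1 and Vdr encode the nuclear receptors for estrogen (ERα), progesterone, glucocorticoids and vitamin D. Prlr and Ghr encode the cell surface receptors for prolactin and growth hormone. Greb1 is a target of the estrogen receptor, and Tnfsf11 encodes RANKL, a secreted signal made in response to progesterone. They are 8 of the 27179 genes counted, each matched 1 Entrez gene identifier, and all 8 passed the filter on low counts that left 17370 genes for testing.

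RNA was sequenced from C57BL/6 mice aged 5 weeks that carried an E-cadherin-GFP reporter, which all groups shared. Terminal end buds (TEBs), the growing tips of the ductal tree in puberty, and ducts were dissected apart under the microscope. From each structure, Lin-CD29+CD24+ cells dim for GFP were sorted as basal cells and those bright for GFP as luminal cells, and each replicate was a pool of 2 or more mice. There were 3 libraries of basal duct, 3 of basal TEB, 2 of luminal duct (replicates 1 and 3) and 3 of luminal TEB. The luminal gate was not divided further, so it held hormone receptor positive (mature luminal) and luminal progenitor cells together. In such bulk samples, fewer cells of a type and less RNA per cell cannot be told apart.

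Estrogen and progesterone reach the mammary epithelium mainly through a subset of luminal cells that carry ERα and the progesterone receptor, and these cells pass the signal to their neighbors through secreted factors such as amphiregulin, Wnt4 and RANKL. Growth hormone acts largely through its receptor in the stroma, where it induces IGF1, and estrogen with growth hormone drives the pubertal outgrowth of the ducts. Prolactin acts through JAK2 and STAT5 and prepares luminal cells for milk production. Glucocorticoids and vitamin D act through receptors found in many cell types.

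The 100 bases before the first start in the RefSeq promoter windows are shown for 6 of the genes. They let the genes that were higher in luminal cells be set beside genes that were higher in basal cells and beside an estrogen target. In Pgr and Greb1 this start lies inside the RefSeq gene, which begins at base 8898900 for Pgr and at base 16801394 for Greb1. The stretches are on the GRCm38.p6 build, the release of mm10 used by the count files, and each is read 5′ to 3′ on the strand of its gene. Capitals mark 5-letter or 6-letter matches on either strand to CCAAT, to the GC box GGGCGG, or to GGTCA, one arm of the estrogen receptor element. Esr1, Pgr and Prlr were higher in luminal cells, Ghr and Vdr were higher in basal cells, and Greb1, the estrogen target, overlapped between the layers.
Esr1 (chr10:4611889-4611988, plus strand): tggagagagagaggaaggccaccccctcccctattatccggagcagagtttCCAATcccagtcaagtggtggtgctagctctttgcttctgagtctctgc
Pgr (chr9:8899733-8899832, plus strand): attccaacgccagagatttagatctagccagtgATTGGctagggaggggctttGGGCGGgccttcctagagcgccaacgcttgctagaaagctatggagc
Prlr (chr15:10177138-10177237, plus strand): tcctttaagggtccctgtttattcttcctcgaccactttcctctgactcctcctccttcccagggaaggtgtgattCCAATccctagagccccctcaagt
Ghr (chr15:3583353-3583452, minus strand): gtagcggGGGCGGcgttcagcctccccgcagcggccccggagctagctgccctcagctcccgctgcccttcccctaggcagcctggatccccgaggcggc
Vdr (chr15:97908297-97908396, minus strand): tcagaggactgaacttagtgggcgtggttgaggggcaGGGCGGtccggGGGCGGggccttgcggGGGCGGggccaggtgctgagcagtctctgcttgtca
Greb1 (chr12:16800887-16800986, minus strand): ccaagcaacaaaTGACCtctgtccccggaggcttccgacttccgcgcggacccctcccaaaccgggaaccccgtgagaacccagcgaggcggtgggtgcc

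The stretches of Esr1, Pgr and Prlr each hold a CCAAT match, which 18.9% of all 32851 windows hold in the same 100 bases. Those of Pgr, Ghr and Vdr hold a GC box, against 24.7% of all windows, and that of Vdr holds 3 copies. The stretch of Greb1 holds a GGTCA match, against 16.1% of all windows. The complete estrogen receptor element GGTCANNNTGACC was found in none of the 12 windows listed for 7 of the genes (250 bases before to 50 bases after each start) and in 0.0700% of all windows. The paired steroid element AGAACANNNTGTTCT was likewise in none of the 12, and in 0.00913% of all windows. The STAT5 motif TTCNNNGAA was in 2 of the 12 windows, the second of Esr1 and the second of Prlr, against 8.30% of all windows. In these full windows CCAAT was not limited to the genes higher in luminal cells. It was in 8 of the 12, among them both windows of Ghr and both of Greb1, against 37.4% of all windows. Such matches are descriptions of letters and not of bound sites. RefSeq lists 2 windows for Esr1, Ghr and Greb1 and 3 for Prlr, and the counts, made per gene, cannot tell their starts apart.

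Library totals ranged from 27989137 to 49221436 counts. Counts of mitochondrial genes made up 4.34% to 37.5% of a library, with the highest shares in basal TEB replicate 1 (37.5%) and luminal duct replicate 3 (28.5%), and comparisons were also run without these 2 libraries. The sorted cells carried the basal and mature luminal markers of their labels. The summed level of 6 basal markers was 14660 to 18419 CPM (counts scaled to a common library size) in basal duct and 5241 to 8159 CPM in basal TEB, against 80.7 and 222 CPM in the luminal duct libraries and 13.1 to 24.1 CPM in luminal TEB. The summed level of 6 mature luminal markers was 2591 to 4003 CPM in luminal libraries and 18.2 to 72.3 CPM in basal ones. The sum of 6 luminal progenitor markers did not separate the layers in TEBs, at 392 to 611 CPM in basal TEB and 324 to 553 CPM in luminal TEB. Of these markers 5 had negative log2 fold changes in basal against luminal TEB. The other, Csn3, averaged 408 CPM in basal TEB and 145 CPM in luminal TEB. The library sizes behind CPM were adjusted by the TMM method. The small number of libraries limits the precision, and p-values measure the spread between libraries of a group, each from a pool of mice. Whether libraries of different groups came from the same pools is not known, and the main fit left them unpaired.

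Set side by side per length, as FPKM (CPM per kilobase of counted length), the receptors fell into a luminal and a basal order. In luminal TEB the level of Prlr was the highest, at 119 ± 8.82 FPKM (SD, n = 3). Pgr followed at 45.0 ± 20.5 FPKM and Esr1 at 27.4 ± 2.07 FPKM, and the ranges of these neighbors overlapped (26.5 to 67.1 and 25.0 to 28.8 FPKM). Vdr stood at 8.61 ± 1.29 FPKM, Nr3c1 at 3.68 ± 0.861 FPKM and Ghr at 2.05 ± 0.147 FPKM, with no overlap between them. Greb1, at 0.405 ± 0.562 FPKM, and Tnfsf11, at 0.0761 ± 0.0673 FPKM, were lowest and overlapped. The order of means was the same in the 2 libraries of luminal duct, where Prlr had 165 FPKM, Pgr 59.4 FPKM and Esr1 14.5 FPKM, and these 3 did not overlap.

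In basal duct the order began with the vitamin D receptor. Vdr had 38.4 ± 1.35 FPKM (SD, n = 3), Nr3c1 14.4 ± 0.817 FPKM and Ghr 10.7 ± 3.53 FPKM, and the ranges of Nr3c1 and Ghr overlapped. Pgr was far lower at 2.53 ± 0.479 FPKM. Prlr (0.812 ± 0.509 FPKM), Greb1 (0.779 ± 0.0491 FPKM) and Esr1 (0.613 ± 0.415 FPKM) could not be ranked beyond their spread. In basal TEB the first 4 places were the same, with Vdr at 22.2 ± 1.45 FPKM, Nr3c1 at 11.7 ± 1.79 FPKM, Ghr at 4.004 ± 0.373 FPKM and Pgr at 3.12 ± 0.515 FPKM, and none of these 4 overlapped.

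**Figure D1:**
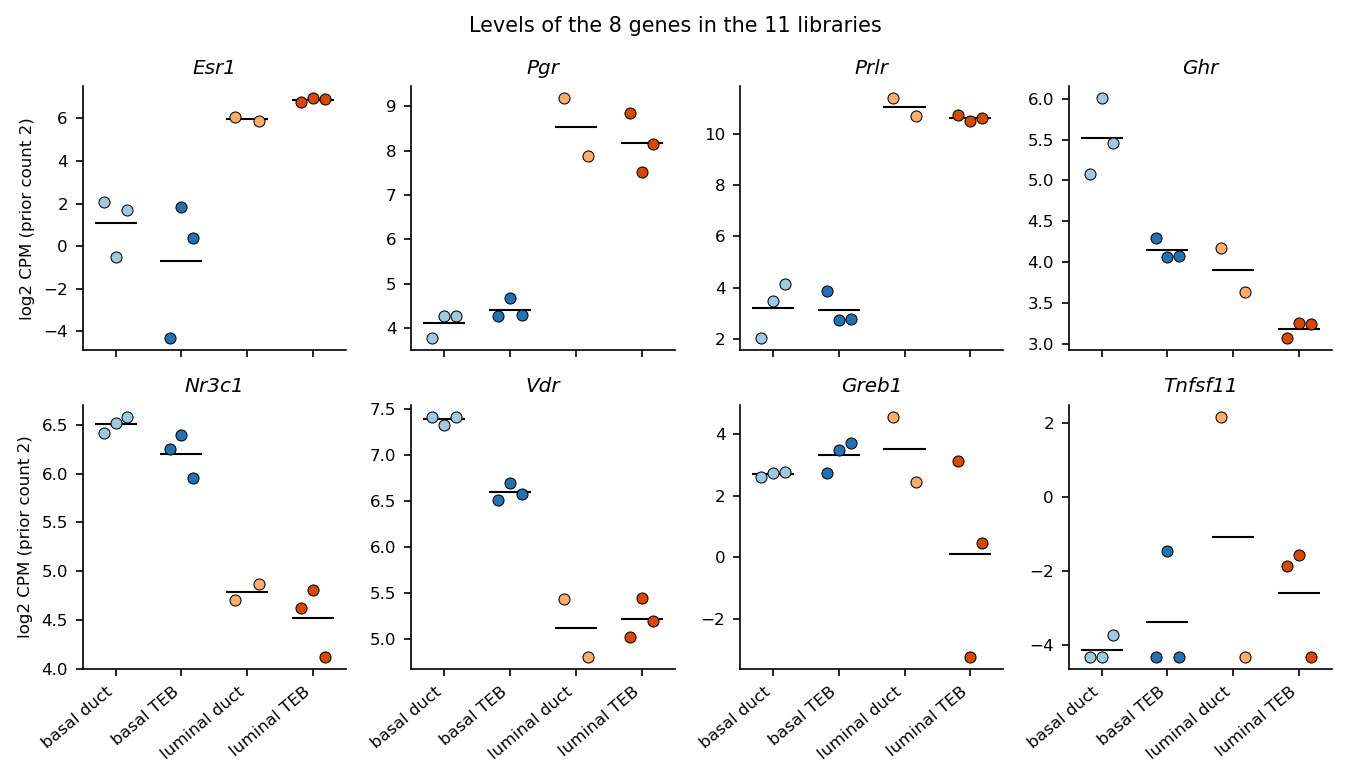
Level of each of the 8 genes in each library, as log2 CPM with a prior count of 2 (vertical axis, a separate scale for each gene), by group (horizontal axis). Points are libraries and bars are group means. Esr1, Pgr and Prlr are higher in every luminal library than in every basal one, Ghr, Nr3c1 and Vdr are higher in basal than in luminal libraries of the same structure, and Greb1 and Tnfsf11 overlap between the layers. Esr1 in basal TEB, Greb1 in luminal TEB and Tnfsf11 in luminal duct spread widely within their group.

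The first question was how the receptors differ between the 2 epithelial layers. Esr1, Pgr and Prlr were lower in basal than in luminal cells, and Ghr, Nr3c1 and Vdr were higher, in ducts and in TEBs alike. In ducts 3 of 8 genes passed the test (adjusted p below 0.05) as higher in basal cells, where 12.6% of all tested genes did, and 3 of 8 as lower, where 9.71% did. In TEBs the counts were again 3 higher and 3 lower, against 13.2% and 11.8% of all genes. The same 6 genes were called in both structures, and Greb1 and Tnfsf11 in neither. These 2 comparisons share no library, but both were fitted in 1 model, and whether they share mice is not known.

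Esr1, the receptor that carries the pubertal estrogen signal, had 66.3 and 59.0 CPM in luminal duct and 108, 125 and 122 CPM in luminal TEB. In basal duct it had 4.13, 0.658 and 3.16 CPM, and in basal TEB 0, 3.50 and 1.26 CPM, the 0 allowing up to 0.173 CPM at the limit of 3 counts. Each luminal library thus lay far above each basal one. Esr1 was 23.5-fold lower in basal duct than in luminal duct (log2 fold change -4.56, SE 0.89, adjusted p = 0.00284) and 69.3-fold lower in basal TEB than in luminal TEB (-6.11, SE 0.93, adjusted p = 0.000396).

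Pgr, an estrogen-induced gene and the receptor that drives side branching, had 583 and 236 CPM in luminal duct and 462, 183 and 285 CPM in luminal TEB. Basal cells had 13.6, 19.4 and 19.2 CPM in ducts and 19.4, 25.6 and 19.5 CPM in TEBs. The luminal libraries differed widely among themselves within a structure, while the basal libraries stayed close together. Pgr was 23.5-fold lower in basal duct (log2 fold change -4.56, SE 0.43, adjusted p = 1.65e-05) and 14.4-fold lower in basal TEB (-3.85, SE 0.40, adjusted p = 2.38e-05).

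Prlr, the prolactin receptor, had the widest gap between the layers of the 6 genes called. It had 2750 and 1674 CPM in luminal duct and 1721, 1485 and 1601 CPM in luminal TEB. Basal libraries held 3.97, 11.1 and 17.6 CPM in ducts and 14.7, 6.57 and 6.83 CPM in TEBs. Prlr was 203-fold lower in basal duct (log2 fold change -7.67, SE 0.62, adjusted p = 6.00e-06) and 173-fold lower in basal TEB (-7.44, SE 0.60, adjusted p = 3.20e-06).

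The traces in basal libraries were set against markers of luminal cells, which could be carried over by the sort. Of their luminal means, basal duct held 4.23% of Esr1, 4.25% of Pgr and 0.493% of Prlr, and 6 mature luminal markers ran from 0.184% to 3.42% with a median of 0.756%. In TEBs the shares were 1.34% for Esr1, 6.94% for Pgr and 0.584% for Prlr, against 0.219% to 9.30% and a median of 1.55% for the markers. Prlr thus lay below the median of the mature luminal markers in both structures and Pgr above it. The same held for 3 luminal keratins, with medians of 2.06% in ducts and 0.854% in TEBs. For 6 luminal progenitor markers the medians were 8.73% in ducts and 8.65% in TEBs, above the shares of Esr1, Pgr and Prlr. The place of Pgr thus depended on the marker list. The part of carried-over luminal cells in these traces was not tested.

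Among the receptors of the basal set, Vdr, which pairs with retinoid X receptors to bind vitamin D target genes, had 170, 160 and 171 CPM in basal duct and 90.8, 103 and 95.4 CPM in basal TEB. Luminal duct held 43.2 and 27.8 CPM, and luminal TEB 32.3, 43.5 and 36.7 CPM. No basal library overlapped a luminal one. Vdr was 4.70-fold higher in basal duct (log2 fold change 2.23, SE 0.23, adjusted p = 3.02e-05) and 2.58-fold higher in basal TEB (1.37, SE 0.19, adjusted p = 0.000212).

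Nr3c1, the glucocorticoid receptor, had 85.6, 91.5 and 95.9 CPM in basal duct and 76.1, 84.4 and 62.1 CPM in basal TEB. In luminal cells it had 26.0 and 29.1 CPM in ducts and 24.6, 27.9 and 17.3 CPM in TEBs. The layers were again fully separate. Nr3c1 was 3.31-fold higher in basal duct (log2 fold change 1.72, SE 0.24, adjusted p = 0.000306) and 3.19-fold higher in basal TEB (1.67, SE 0.21, adjusted p = 9.43e-05).

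Ghr, the growth hormone receptor, had 33.7, 64.3 and 43.9 CPM in basal duct and 19.6, 16.7 and 16.9 CPM in basal TEB. Luminal duct held 18.1 and 12.3 CPM, and luminal TEB 8.34, 9.53 and 9.40 CPM. Within each structure every basal library was above every luminal one, but basal TEB overlapped luminal duct. Ghr was 3.11-fold higher in basal duct (log2 fold change 1.64, SE 0.34, adjusted p = 0.00442) and 1.95-fold higher in basal TEB (0.96, SE 0.29, adjusted p = 0.0300). The call in TEBs was lost without any 1 of the 6 TEB libraries, at adjusted p of 0.0563, 0.0515 and 0.0553 without basal replicates 1, 2 and 3 and 0.111, 0.0841 and 0.0864 without luminal replicates 1, 2 and 3.

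**Figure D2:**
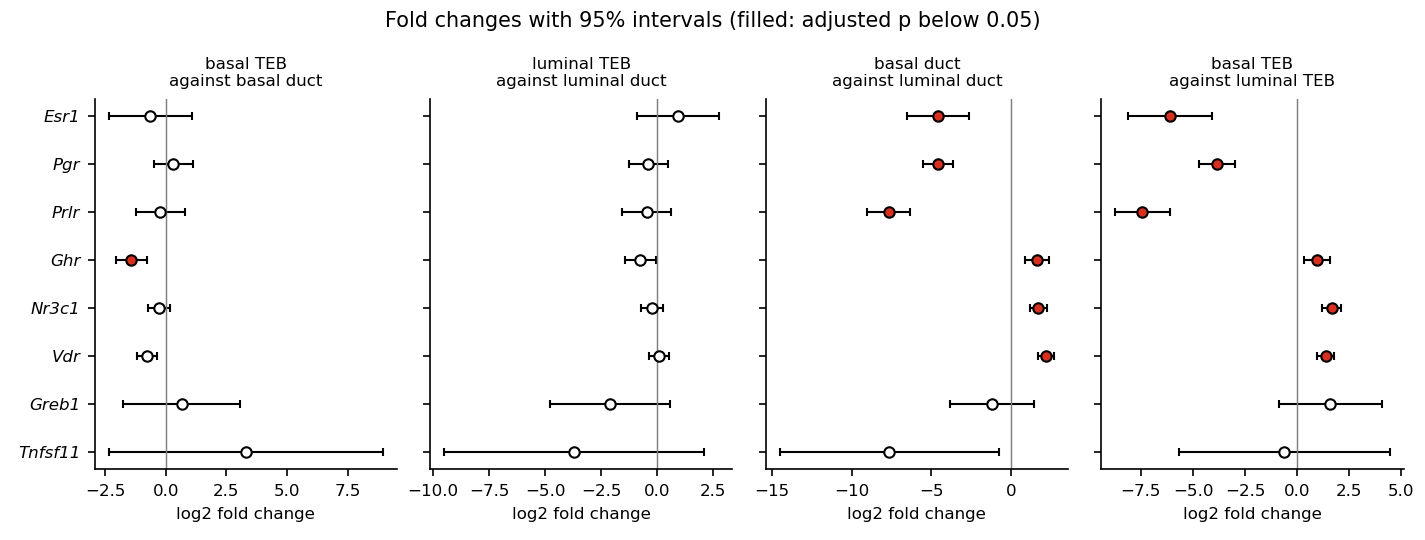
Log2 fold change (horizontal axis, a separate scale in each panel) of each of the 8 genes in the 4 comparisons of groups, the first group over the second. Points are estimates of edgeR's quasi-likelihood fit, bars are 95% intervals, and filled points passed an adjusted p below 0.05. The 6 receptors pass between the layers in both structures, and between TEBs and ducts Ghr alone passes, in basal cells.

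The second question was how the receptors differ between the advancing TEB and the duct behind it. In basal cells Ghr was lower in TEBs and no other of the 8 genes passed the test. Of the 8 genes 1 was called lower, where 1.16% of all tested genes were, and none higher, where 0.167% were. In 3 of the 8 genes, Ghr, Nr3c1 and Vdr, every TEB library was below every duct library, which held for 11.9% of all genes. The median log2 fold change of the 8 genes was -0.26, against -0.03 over all tested genes.

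Ghr fell from 47.3 ± 15.6 CPM in basal duct to 17.7 ± 1.65 CPM in basal TEB (SD, n = 3 each), a 2.67-fold difference (log2 fold change -1.42, SE 0.29, 95% interval -2.06 to -0.78, adjusted p = 0.0411). The summed level of 7 fibroblast markers, genes of a cell type in which Ghr is known to be active, was lower in basal TEB too. They summed to 432, 856 and 498 CPM in basal duct replicates 1 to 3 and to 227, 413 and 230 CPM in basal TEB, with Lum at 0 in 1 basal duct library, Lum and Dpt at 0 in 1 basal TEB library, and none of the 7 markers called. In basal duct Ghr followed the order of these sums and in basal TEB it did not. The 6 basal markers were lower in basal TEB as well, 3 of them called, with a median log2 fold change of -1.85. Basal duct replicate 2, the highest for Ghr, also had the highest sums of adipocyte markers (190 CPM, with Adipoq and Plin1 at 0) and endothelial markers (156 CPM) of the basal libraries. In luminal duct the libraries had fibroblast sums of 6.03 and 259 CPM and Ghr levels of 18.1 and 12.3 CPM, so that Ghr was higher where the sum was lower. The part of these markers' cells in the basal difference was not tested.

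The fall of Ghr was lost, with its direction kept, when any 1 of 8 libraries was left out. The adjusted p was 0.190 without basal duct replicate 2, 0.0682 without basal duct replicate 3, 0.0691, 0.0624 and 0.177 without basal TEB replicates 1, 2 and 3, and 0.0686, 0.0683 and 0.0717 without luminal TEB replicates 1, 2 and 3. It kept the call when the libraries of highest mitochondrial share were left out as a pair. The log2 fold change stayed between -1.64 and -1.13 throughout these leave-outs.

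Vdr was 1.73-fold lower in basal TEB than in basal duct, with levels of 96.5 ± 6.31 and 167 ± 5.87 CPM (SD, n = 3 each). The log2 fold change was -0.79 (SE 0.19, 95% interval -1.20 to -0.38) and missed the threshold (adjusted p = 0.0734). It passed in 7 of 24 alternative fits, among them without luminal duct replicate 1 (adjusted p = 0.0246) and without luminal duct replicate 3 (0.0251), while the fold change moved by less than its error. Nr3c1 had 91.0 ± 5.17 CPM in basal duct and 74.2 ± 11.3 CPM in basal TEB, a log2 fold change of -0.29 with an interval of -0.74 to 0.15 (adjusted p = 0.547).

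For the other genes the basal libraries of the structures overlapped. Pgr had a log2 fold change of 0.31 (95% interval -0.48 to 1.10), Prlr of -0.23 (-1.24 to 0.78), Esr1 of -0.64 (-2.36 to 1.07) and Greb1 of 0.66 (-1.75 to 3.06). These intervals allow a change of 2-fold or more in at least one direction for each. The sign of Prlr turned without basal duct replicate 3, to 0.30 (adjusted p = 0.822).

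In luminal cells none of the 8 genes passed the test between TEBs and ducts, where 1.41% of all tested genes did. At an unadjusted p below 0.05 there was 1, Ghr, where 16.6% of all tested genes were. In the fit of the luminal libraries alone 1 gene, Esr1, was called, higher in TEBs, where 3.92% of the 15390 genes tested there were called. With DESeq2 and with limma voom none was. The medians of the 8 genes and of all genes were -0.43 and 0.04 on the log2 scale. The luminal duct group rests on 2 libraries.

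Esr1 was higher in each luminal TEB library (108, 125 and 122 CPM) than in each luminal duct library (66.3 and 59.0 CPM), an order that 26.2% of all tested genes shared. Its log2 fold change was 0.92 (SE 0.84, 95% interval -0.92 to 2.75, adjusted p = 0.611). In this fit all 4 groups shared the estimate of the spread, including the basal libraries where Esr1 was near 0 and relatively spread. Fitted on the 5 luminal libraries alone the log2 fold change was 0.89 and the adjusted p was 0.0343. The call for Esr1 thus depended on which libraries entered the fit. The ratio of the mature luminal to the luminal progenitor marker sum was 4.28 and 2.45 in luminal duct. In luminal TEB this ratio was 9.18, 4.71 and 8.64. All 6 progenitor markers had negative log2 fold changes, and of 6 mature luminal markers 2 had positive and 4 negative ones. The part of cell composition in the Esr1 values was not tested.

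Ghr was lower in each luminal TEB library than in each luminal duct library, an order found in 17.4% of all genes. The level was 9.09 ± 0.652 CPM in TEBs (SD, n = 3) and 18.1 and 12.3 CPM in ducts, a log2 fold change of -0.74 (95% interval -1.44 to -0.05, unadjusted p = 0.0386, adjusted p = 0.272). The estimates for Ghr were negative in both layers, but only the basal one was called. The difference between the changes was -0.67 on the log2 scale with an interval of -1.62 to 0.28. Vdr had no such negative luminal estimate. Its luminal levels overlapped between structures, with a log2 fold change of 0.08 (95% interval -0.38 to 0.53), and the sign turned without luminal duct replicate 3 (-0.21) and without luminal TEB replicate 2 (-0.05).

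Pgr had a log2 fold change of -0.40 (95% interval -1.27 to 0.47) and Prlr of -0.47 (-1.56 to 0.62) in luminal cells, and both overlapped between structures. The fold change of Pgr was 0.40 without luminal duct replicate 1, its opposite in sign. Nr3c1 stood at -0.24 (95% interval -0.74 to 0.26).

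In the test of whether the change from duct to TEB differs between the layers, the interaction of the model, none of the 8 genes passed, where 0.443% of all tested genes did. At an unadjusted p below 0.05 there was 1, Vdr, where 14.7% of all tested genes were. It had the lowest adjusted p, with an interaction of -0.87 on the log2 scale (95% interval -1.49 to -0.25, adjusted p = 0.203). It passed without luminal duct replicate 1 (-1.22, adjusted p = 0.0302), and in none of the other 22 alternatives run.

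Greb1 and Pgr varied more between the luminal libraries of a group than Esr1 did. Greb1, the estrogen target, had 23.4 and 5.39 CPM in luminal duct and 8.65, 0.0572 and 1.33 CPM in luminal TEB, where the lowest value was 3 counts. Its log2 fold change between luminal TEB and luminal duct was -2.10 with an interval of -4.77 to 0.56 (adjusted p = 0.401). In basal cells Greb1 was steadier, at 5.99, 6.55 and 6.77 CPM in ducts and 6.64, 10.9 and 12.9 CPM in TEBs, within the range of the luminal libraries although Esr1 was near 0 there. In TEBs every basal library but 1 was above every luminal one, and the log2 fold change of 1.60 (95% interval -0.85 to 4.06, adjusted p = 0.337) passed the threshold without luminal TEB replicate 1 (3.86, adjusted p = 0.0465), with limma voom (3.64, adjusted p = 0.0400) and with limma voom and quality weights (3.56, adjusted p = 0.00893). In ducts the sign turned without luminal duct replicate 1, from -1.16 to 0.26.

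The libraries numbered 1 were the highest of their group for Pgr, Prlr and Greb1 in both luminal structures, 3 of 8 genes, against 17.6% of all tested genes. For Esr1 the library numbered 1 was the highest in luminal duct but the lowest in luminal TEB. The Esr1 levels stayed within 8.20% (coefficient of variation) in luminal duct and 7.55% in luminal TEB, against 59.9% and 45.5% for Pgr. The FPKM ratio of Pgr to Esr1 was 5.51 and 2.51 in luminal duct replicates 1 and 3, and 2.68, 0.920 and 1.47 in luminal TEB replicates 1, 2 and 3. Among 8 tested genes of the estrogen and progesterone response list, 5 (Areg, Xbp1, Myb, Stc2 and Cxcl12) had the same order. Areg, the amphiregulin gene, had 2385 and 1002 CPM in luminal duct and 1790, 934 and 892 CPM in luminal TEB.

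The same order was present in genes outside the hormone response. The keratin genes Krt8, Krt18 and Krt19 had it in 3 of 3 cases, 2 of 6 mature luminal markers had it (Tspan13 and Areg, which is on both lists), and none of the 6 luminal progenitor markers had it. The summed level of the mature luminal markers was 4003 and 2591 CPM in luminal duct and 3556, 2601 and 2803 CPM in luminal TEB, so it too was highest in the libraries numbered 1. Its ratio to the luminal progenitor sum was 4.28 and 2.45 in luminal duct and 9.18, 4.71 and 8.64 in luminal TEB. The part of cell composition in the Pgr and Greb1 values was not tested.

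**Figure D3:**
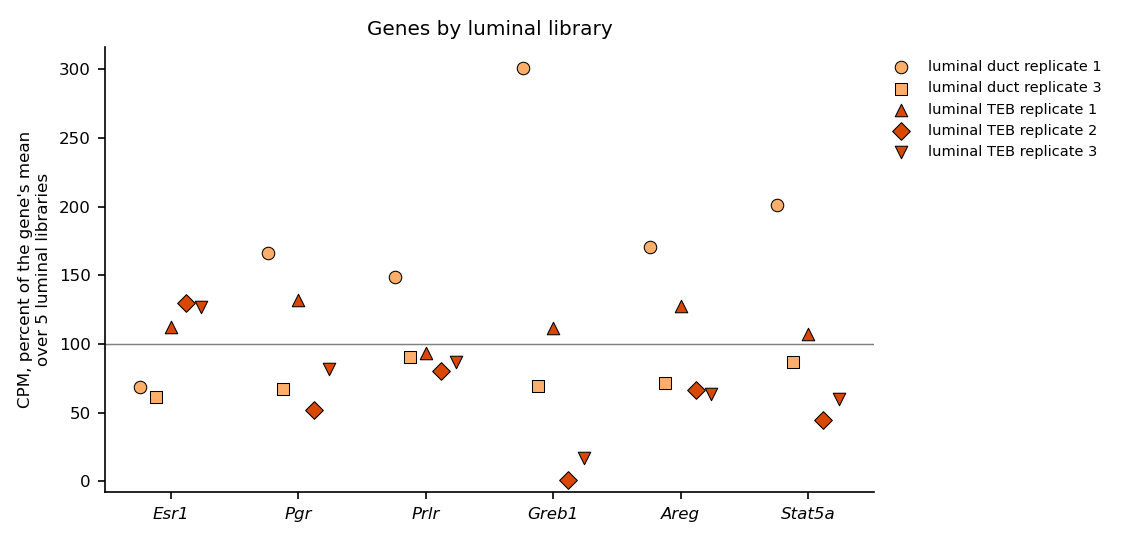
CPM of the members Esr1, Pgr, Prlr and Greb1 and of Areg and Stat5a in the 5 luminal libraries, as a percent of the mean of each gene over these libraries (vertical axis). Each marker shape is a library. Luminal duct replicate 1 and luminal TEB replicate 1 (circle and upward triangle) lead their groups for every gene shown except Esr1. For Esr1, luminal duct replicate 1 leads its group and luminal TEB replicate 1 is the lowest of its group.

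Tnfsf11, encoding RANKL, was at the edge of detection. It had 0, 0 and 1 counts in basal duct, 0, 15 and 0 in basal TEB, 197 and 0 in luminal duct, and 10, 15 and 0 in luminal TEB. Most of its reads came from luminal duct replicate 1, at 4.48 CPM, which was also the library with the most Pgr. It was called in none of the 5 comparisons. In ducts the adjusted p was 0.108, and it passed (0.0430) without basal TEB replicate 1 and luminal duct replicate 3, both at 0 counts, a fit in which replicate 1 alone stands for luminal duct. A count of 0 in luminal duct replicate 3 allows up to 0.123 CPM, and the difference between luminal duct and luminal TEB (log2 fold change -3.70, adjusted p = 0.503) rested on luminal duct replicate 1, turning to 5.79 without it.

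The receptors for RANKL were higher in basal than in luminal cells. The counts called in each pathway list stand against the same shares of all tested genes as above, 12.6% higher and 9.71% lower in basal than in luminal duct, 13.2% and 11.8% in TEBs, 0.167% and 1.16% in basal TEB against basal duct, and 1.41% in either direction between luminal structures. Of 8 genes of the RANK pathway list, all tested, 3 were higher in basal than in luminal duct, and 2 were higher and 3 lower in basal than in luminal TEB. Tnfrsf11a, encoding RANK, had 44.3, 73.1 and 36.3 CPM in basal duct and 23.1, 29.4 and 23.7 CPM in basal TEB, against 5.51 and 3.70 CPM in luminal duct and 4.01, 5.16 and 5.01 CPM in luminal TEB. The log2 fold change was 3.47 in ducts (SE 0.40, adjusted p = 7.29e-05) and 2.43 in TEBs (SE 0.33, adjusted p = 0.000162). Tnfrsf11b, encoding the soluble decoy receptor osteoprotegerin, had 46.8 to 56.1 CPM in basal duct and 35.1 to 48.1 CPM in basal TEB, and at most 0.637 CPM in any luminal library. Its log2 fold changes were 7.06 (SE 0.94, adjusted p = 0.000203) and 8.53 (SE 0.85, adjusted p = 1.60e-05). None of the 8 passed between TEBs and ducts in either layer.

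**Figure D4:**
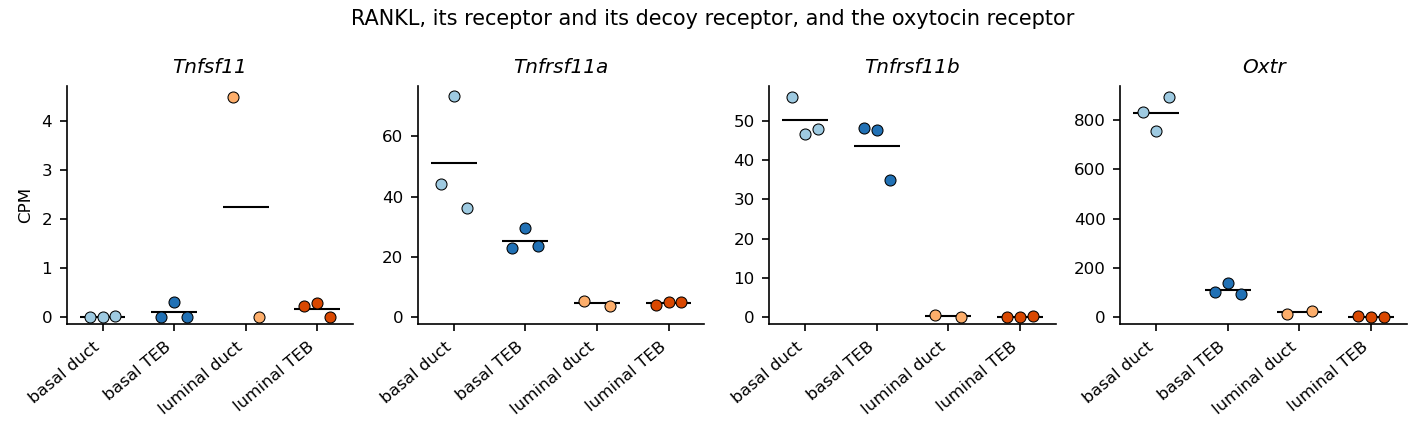
CPM (vertical axis, a separate linear scale for each gene) of Tnfsf11 (RANKL), Tnfrsf11a (RANK), Tnfrsf11b (osteoprotegerin) and Oxtr (oxytocin receptor) by group. Points are libraries and bars are group means. Tnfsf11 reaches 4.48 CPM in 1 luminal duct library and is at most 0.316 CPM in the others, while the other genes are highest in basal cells.

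Other hormone receptors were read from a list of 12, of which 10 were tested. Oxtr, the oxytocin receptor through which myoepithelial cells contract, was the one called between TEBs and ducts, and it was lower in TEBs in both layers. It had 832, 757 and 893 CPM in basal duct and 101, 138 and 95.9 CPM in basal TEB, a log2 fold change of -2.89 (SE 0.32, adjusted p = 0.00175). In luminal cells it had 12.4 and 26.9 CPM in ducts and 3.16, 2.21 and 1.56 CPM in TEBs, a log2 fold change of -3.09 (SE 0.35, adjusted p = 0.00414). The luminal call was lost with library size alone (adjusted p = 0.0502) and with limma voom (0.0594). The 6 basal markers moved the same way in luminal cells, where their sum was 80.7 and 222 CPM in ducts and 13.1 to 24.1 CPM in TEBs, and their part in the luminal value was not tested. Between the layers, Oxtr was higher in basal cells (log2 fold changes of 5.40 in ducts and 5.60 in TEBs), and Esrrb, an orphan receptor related to ERα, was lower in basal cells, with 2.48 to 72.0 CPM in luminal libraries and at most 0.295 CPM in basal ones (adjusted p = 0.000472 in ducts and 0.00221 in TEBs).

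Of the estrogen and progesterone response list 8 of 10 genes were tested, and 7 were lower and 1 higher in basal duct than in luminal duct. In TEBs 6 were lower and 1 higher. Areg had a log2 fold change of -9.07 in basal against luminal duct (SE 1.28, adjusted p = 0.000298) and of -8.23 in TEBs. Cited1, a co-regulator found in hormone receptor positive cells, had log2 fold changes of -7.29 in ducts and -8.70 in TEBs. Between TEBs and ducts 1 of the 8 was called, the cyclin gene Ccnd1, which rose in basal cells from 46.5, 62.9 and 77.8 CPM in ducts to 264, 169 and 189 CPM in TEBs (log2 fold change 1.73, SE 0.23, adjusted p = 0.00374). The luminal value of Ccnd1 was 0.96 with an adjusted p of 0.0850.

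All 14 genes of the list of steroid receptor cofactors were tested. Between the layers 2 were higher and 4 lower in basal duct, against 12.6% and 9.71% of all genes, and 2 higher and 7 lower in basal TEB, against 13.2% and 11.8%, so the numbers higher were near the share of all genes. Foxa1, the factor that opens chromatin for ERα, was lower in basal cells, with log2 fold changes of -7.40 in ducts (adjusted p = 7.28e-05) and -8.24 in TEBs (adjusted p = 2.73e-05). Gata3, a factor that maintains luminal cells, was lower in basal duct (log2 fold change -1.78). In luminal cells Gata3 was the one called between the structures, with 333 and 413 CPM in ducts and 163, 127 and 185 CPM in TEBs (log2 fold change -1.23, SE 0.22, adjusted p = 0.0241), while the level of Esr1 was higher in these TEB libraries. The 6 luminal progenitor markers moved with Gata3, with sums of 936 and 1057 CPM in luminal duct and 324 to 553 CPM in luminal TEB, a median log2 fold change of -1.29, all 6 negative and none called, and their part in the Gata3 value was not tested. The call of Gata3 was lost with library size alone (adjusted p = 0.235), without basal TEB replicate 1 and luminal duct replicate 3 as a pair (0.0780), and also without luminal duct replicate 3 (adjusted p = 0.0955) or without luminal TEB replicates 1, 2 or 3 (0.0795, 0.0882 and 0.0714). Tbx3, a repressor needed for mammary development, was lower in basal TEB than in basal duct (log2 fold change -0.82, adjusted p = 0.0415). This call was lost without any 1 of the basal duct libraries, basal TEB replicates 1 or 3 or the luminal TEB libraries, with adjusted p up to 0.174. It was also lost with library size alone (0.333) and with limma voom (0.0564), and held in 10 of 24 alternatives.

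The 11 genes of prolactin and growth hormone signaling were all tested. Stat5a, which carries the prolactin signal to the nucleus, was lower in basal than in luminal duct (log2 fold change -1.79, SE 0.37, adjusted p = 0.00454) and in basal than in luminal TEB (-1.33, SE 0.34, adjusted p = 0.0140). Elf5, a factor of milk-producing cells, had log2 fold changes of -6.44 in ducts and -5.83 in TEBs between the same groups. In all, 4 genes were lower and 1 higher in basal duct, and 6 lower and 1 higher in basal TEB. In basal cells 2 feedback inhibitors of cytokine receptors were called lower in TEBs, and the other 9 genes of the list were not called. Among those 9 was Socs2, another such inhibitor, at 34.6 ± 3.26 CPM in basal duct and 29.1 ± 4.46 CPM in basal TEB (SD, n = 3 each). Socs3 had 904, 1125 and 1043 CPM in basal duct and 167, 318 and 233 CPM in basal TEB (log2 fold change -2.10, SE 0.25, adjusted p = 0.00225). Cish, a target of STAT5, had 116, 94.7 and 54.8 CPM in ducts and 17.1, 42.0 and 30.4 CPM in TEBs (-1.57, SE 0.34, adjusted p = 0.0496). Its call was lost without any 1 of basal duct replicates 1 and 2, basal TEB replicates 1 and 3 and the luminal TEB libraries, with adjusted p up to 0.206. It was also lost with library size alone (0.236), and held in 9 of 24 alternatives.

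Of 11 genes of the glucocorticoid response list, all tested, 4 were lower in basal TEB than in basal duct, against 1.16% of all genes, and none was higher, against 0.167%, while Nr3c1 itself did not pass. Dusp1, a phosphatase that turns off MAP kinases, had 316, 432 and 349 CPM in ducts and 41.5, 107 and 63.9 CPM in TEBs (log2 fold change -2.37, SE 0.30, adjusted p = 0.00330). Cebpd had 225, 337 and 142 CPM and 27.4, 64.9 and 26.5 CPM (-2.56, SE 0.40, adjusted p = 0.00891). Its call was lost without basal TEB replicate 3 (adjusted p = 0.0713) and with library size alone (0.0645). Klf9 had a log2 fold change of -1.84 (adjusted p = 0.0282) and Sgk1, a kinase that regulates ion transport, of -1.21 (adjusted p = 0.0303), and both calls were lost without any 1 of basal duct replicates 1 and 2, basal TEB replicates 1 and 3 and the luminal TEB libraries, with adjusted p up to 0.0971 and 0.167. That of Klf9 was also lost without basal duct replicate 3 (0.0555). With library size alone both were lost too (0.139 for Klf9 and 0.204 for Sgk1). Of 24 alternatives, Klf9 was called in 12 and Sgk1 in 13. Fkbp5 and Tsc22d3, also on the list, were not called, and the mean of Fkbp5 was higher in basal TEB (17.7 CPM) than in basal duct (9.25 CPM). Between these groups 7 of the 11 log2 fold changes were negative and 4 positive. In luminal cells none of the 11 was called. Between the layers Zbtb16 and Nfkbia were lower in basal duct, with log2 fold changes of -5.05 and -1.28, and with 1 of 11 higher and 2 lower in basal duct and 1 higher and 3 lower in basal TEB.

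The vitamin D list had 6 of 8 genes tested and none was called between TEBs and ducts. Trpv6, a calcium channel that vitamin D induces in the intestine, followed Vdr in being higher in basal cells. It had 52.0, 47.3 and 54.6 CPM in basal duct and 68.7, 41.5 and 49.4 CPM in basal TEB, against 3.98 and 20.5 CPM in luminal duct and 1.48, 3.47 and 1.75 CPM in luminal TEB (log2 fold change 2.07 in ducts, adjusted p = 0.0252, and 4.57 in TEBs, adjusted p = 8.73e-05). Unlike Vdr, its basal levels overlapped between structures. Rxra, the partner of Vdr, was lower in basal TEB than in luminal TEB (log2 fold change -0.76, adjusted p = 0.0228). Cyp24a1, a direct target of the vitamin D receptor in many cells, was at or below 1.03 CPM in all libraries.

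**Figure D5:**
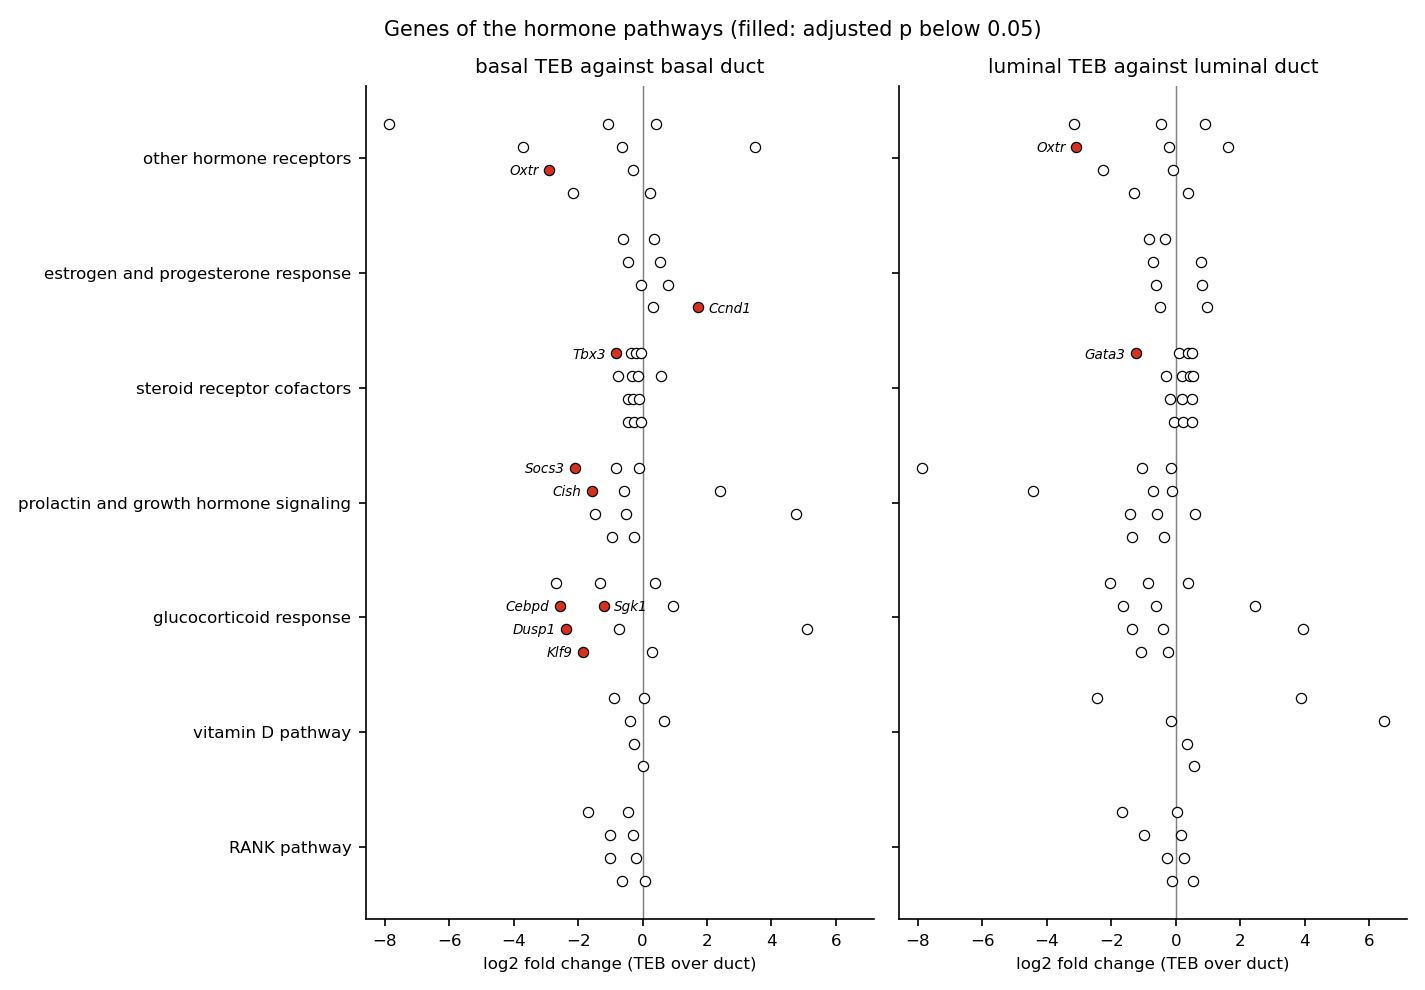
Log2 fold change of TEB over duct (horizontal axis) for each tested gene of 7 lists of hormone pathway genes (rows), in basal cells (left) and luminal cells (right). Points are genes, spread vertically within a row for legibility, and filled points passed an adjusted p below 0.05 in edgeR's quasi-likelihood test. In basal cells 9 genes pass, 8 of them lower in TEBs, and in luminal cells Oxtr and Gata3 pass.

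Genes whose pattern was most like that of each receptor were found by the Pearson correlation of log2 CPM over the 11 libraries, among 13005 candidates. These values mostly follow the split into 2 layers, which all the libraries share, and are a description. For Esr1 they were Atp6v0e2 (r = 0.996), Lrba (0.995) and Plekhh1 (0.992). For Pgr they were Olfm4 (0.992), Cd164 (0.989) and Tpd52 (0.988), and for Prlr Vill (0.993), Dhx32 (0.993) and Fam3b (0.991). On the basal side they were Dll1 (0.987), Mamld1 (0.987) and Fgf1 (0.985) for Nr3c1, and Cttnbp2nl (0.991), Pmp22 (0.987) and Bcam (0.984) for Vdr. For Ghr they were Slmap (0.961), Capns1 (0.954) and Maff (0.953), and 50 genes had r above 0.9, against 480 to 889 for the other receptors. For Greb1 no gene reached 0.9 (Bnip3 0.800, Pknox2 0.793 and Twnk 0.792), and for Tnfsf11 1 did (Dctn6 0.923, then Rplp0 0.882 and Tmprss11a 0.880), on few counts.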

How the data were processed

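RNA of sorted cells was made into TruSeq RNA v2 libraries, which do not keep the strand, and sequenced as 80 bp read pairs. The authors aligned the pairs to mm10 with Rsubread, counted them by Entrez gene (featureCounts, per the labels) and deposited raw counts, whole and not normalized. The authors left out a luminal duct sample that had too few cells. The 8 genes, the pathway lists and the marker lists were chosen with earlier results of these data known. Symbols were matched by Entrez identifier to RefSeq (GRCm38.p6) for 25275 of 27179 genes, and promoter windows are from RefSeq.

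Analysis used R 4.3.3 and edgeR 4.0.16. Genes were filtered by filterByExpr (minimum count 10, minimum total 15), library sizes were scaled by TMM, and 4 groups were fitted in 1 model with the quasi-likelihood test. The study's methods name estimateDisp and glmFit and no block. Adjusted p-values are Benjamini-Hochberg values over 17370 genes, with a threshold of 0.05. SEs were taken from the F statistic (size of the log2 fold change over the root of F). The quasi-likelihood fit was also run on simulated counts for basal TEB against basal duct. These were drawn with less spread than the libraries had, so the run cannot show how the fit performs on these data. FPKM are CPM divided by the counted length in kilobases. Named were all 8 genes, list genes past the threshold between TEBs and ducts, the 2 largest changes per list between layers with a mean CPM of at least 1, and the 3 genes most like each member. Xbp1, Myb, Stc2, Cxcl12, Socs2, Csn3, Fkbp5, Tsc22d3, Cyp24a1, Tspan13 and the keratin genes were named after their values were seen. Alternatives were DESeq2 size factors, library size alone, other filters, the likelihood ratio test, DESeq2 1.42.0, limma 3.58.1 voom with and without quality weights, fits of the groups compared, the replicate block, removal of the 15 mitochondrial genes (chosen by chromosome, as their symbols lack the usual prefix), an FDR of 0.01 and leaving out libraries.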

Additional observations from a re-analysis of the deposited data

Results flagged for a closer look

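Socs3, the feedback inhibitor of cytokine receptor signaling, passed the interaction test of edgeR. It was the one gene among the 8 receptors and targets and the pathway lists whose change from duct to TEB differed between the layers. Besides the 8 members, the lists held 10, 8, 14, 11, 11, 6 and 8 tested genes, some of them on 1 list each. Of all tested genes 0.443% passed. The difference of the 2 changes was -1.94 on the log2 scale (SE 0.37, adjusted p = 0.0490). In basal cells the levels were 904, 1125 and 1043 CPM in ducts and 167, 318 and 233 CPM in TEBs, and in luminal cells they were 538 and 409 CPM in ducts and 421, 361 and 492 CPM in TEBs. The basal log2 fold change was -2.10 and lower in 3 of 3 TEB libraries, and the luminal one was -0.16 with overlapping libraries (adjusted p = 0.811). The interaction stayed negative in all 23 alternative fits (-2.36 to -1.56) and passed the threshold in 8 of them, with adjusted p from 3.71e-05 to 0.174. It was lost without any 1 of 9 libraries, all but basal TEB replicate 2 and luminal duct replicate 1, with adjusted p from 0.0564 to 0.174.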

How the results depend on the processing

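Over 40 results of the 8 genes and 24 alternatives, 942 values were computed, of which 887 kept the direction and the side of the threshold, 21 lost the threshold, 13 gained it and 21 turned in sign. Of the 8 genes, 6 were called between layers in each structure, and the alternatives called 6 to 7 in ducts and 5 to 7 in TEBs. Of the 6, 5 kept their call in both structures in all 24 alternatives. Ghr kept it in 24 in ducts and in 15 in TEBs, where its log2 fold change ran from 0.52 to 1.00. That of Esr1 in TEBs ran from -7.61 to -5.62 and that of Pgr in ducts from -5.07 to -3.76. Between basal TEB and basal duct 1 gene (Ghr) was called, against 2 (Ghr and Vdr) with DESeq2 size factors, the likelihood ratio test, DESeq2 and limma voom with or without quality weights, and 0 with library size alone, in the fit of the compared groups, with the replicate block and at an FDR of 0.01. Leaving out 1 library each gave 0 to 2. Between luminal TEB and luminal duct the fit of the compared groups called 1 (Esr1), against 0. For the interaction, leaving out 1 library gave 0 to 1. Over all genes the likelihood ratio test called 707 genes between basal TEB and basal duct, against 230, and library size alone called 57. Library size alone moved the median of all genes to 0.42 between luminal TEB and luminal duct, from 0.04.

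Signs turned for values that passed no threshold. With library size alone Nr3c1 between luminal structures was 0.15 and the interaction of Prlr was -0.39. Vdr between luminal structures was -0.0203 with quality weights and -0.19 without the 2 libraries of highest mitochondrial share. Leaving out 1 library each gave ranges that cross 0. Between luminal structures these were -0.21 to 0.43 for Vdr, -0.91 to 0.40 for Pgr and -4.70 to 5.79 for Tnfsf11. Between layers in ducts they were -1.86 to 0.26 for Greb1 and -9.51 to 1.88 for Tnfsf11, and between basal structures -0.69 to 0.30 for Prlr and -1.87 to 5.2002 for Tnfsf11. For the interaction they were -0.0867 to 1.22 for Pgr, -0.25 to 0.77 for Prlr, -0.23 to 0.0784 for Nr3c1 and -2.51 to 8.90 for Tnfsf11. Luminal duct replicate 1 was the library left out at the turned end for Pgr, for Greb1 and, except between basal structures (basal TEB replicate 2), for Tnfsf11. The cause of these changes was not tested.

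Replicate numbers are shared between groups, and nothing in the labels says what a number marks. Of 15 pairs of same-numbered libraries 4 had deviations correlated above 0.1 (r from -0.07 to 0.16, against -0.16 to 0.14 for pairs of different numbers). Of the 11 libraries, 7 correlated best with a library of their own number. These values do not settle whether a number marks a shared pool of mice, and the main fit left the libraries unpaired. With the replicate block the adjusted p of Ghr between basal structures was 0.0709 (log2 fold change -1.39), the calls of Tbx3 (0.0728) and Cish (0.0702) between basal structures, of Gata3 (0.0531) between luminal structures and of the Socs3 interaction (0.0930) were lost, the interaction of Nr3c1 was 0.0323, and 204 genes in place of 230 were called between basal structures and 125 in place of 245 between luminal ones.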
